A study of Mus musculus with 12 samples.

Results

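Transthyretin and 8 genes that carry, take up, convert, bind or move retinoids were followed in RNA-seq of mouse hippocampus. The genes were given as a list of symbols (*Ttr*, *Rbp4*, *Stra6*, *Rdh5*, *Rdh10*, *Aldh1a1*, *Aldh1a2*, *Crabp2* and *Abca4*) and were found through their Ensembl identifiers. They are 9 of the 55421 genes listed in the counts, and all 9 were among the 22592 genes with more than 20 counts over the 12 libraries that were tested.

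The mice were *Fmr1* knockouts (KO), a model of fragile X syndrome on a C57BL/6 background, or wild type (WT), and each genotype received vehicle (Veh) or Nutlin-3 (Nut3), with 3 mice in each of the 4 groups. Nutlin-3, an inhibitor of the binding of MDM2 to p53, was injected into the peritoneum at 10 mg/kg, 5 times, starting at 2 months of age, and both Veh groups were injected with its vehicle. Hippocampi were dissected at 6 months, months after the last injection, and each library is named here by its group and animal number (RH1 to RH16). The dissection was of bulk tissue, in which fewer cells of a type and less RNA per cell cannot be told apart, and the deletion is carried by all cells of the KO mice. The study also bred a Nestin-GFP reporter into some of its mice, and the labels do not say whether the sequenced mice carried it.

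Retinol travels in blood bound to RBP4, which in turn is held by transthyretin, a protein that also carries thyroid hormone and that the choroid plexus secretes into the cerebrospinal fluid. STRA6 takes up retinol, RDH10 oxidises it to retinaldehyde, and the ALDH1A enzymes turn that into retinoic acid, which CRABP2 delivers to nuclear receptors. RDH5 and ABCA4 are best known from the visual cycle of the eye. In adult brain *Ttr* is known as a product of choroid plexus epithelium and *Aldh1a2* as an enzyme of the meninges, while *Aldh1a1* is found in midbrain dopaminergic neurons and some glia.

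Reads counted on genes lay between 17150820 and 20040482 per library. Levels are given as CPM, the count of a gene scaled by the reads on genes in its library (per megaread), after TMM normalization. *Fmr1* was at 32.5, 32.7 and 37.3 CPM in KO-Veh and at 28.5, 30.6 and 35.7 CPM in KO-Nut3. It was at 75.3, 77.7 and 79.5 CPM in WT-Veh and at 74.0, 75.2 and 78.3 CPM in WT-Nut3. The genotype labels therefore matched the level of the deleted gene in 12 of 12 libraries, although the KO libraries still held reads on it.

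Some libraries stood apart in markers of other tissues, and the retinoid genes have to be read beside them. The summed level of 25 choroid plexus epithelium markers, *Ttr* not among them, was 2811 CPM in WT-Nut3 RH9, 2356 in KO-Nut3 RH6, 2972 in KO-Nut3 RH13 and 466 in KO-Nut3 RH8, and lay between 231 and 289 CPM in the other 8 libraries. The most abundant of them in each library was *Enpp2*, a secreted lysophospholipase that oligodendrocytes also make. Of the 25 markers, 1 was at 0 reads in each of WT-Nut3 RH1, WT-Veh RH15 and KO-Veh RH7, and 2 in each of WT-Veh RH2 and KO-Veh RH10. In the other 7 libraries, which include the 4 with high sums, 0 of the markers were at 0 reads.

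The summed level of 24 markers of meningeal fibroblasts, *Aldh1a2* and *Crabp2* not among them, followed another order. It was highest in KO-Nut3 RH8 (543 CPM), then in WT-Veh RH5 (413 CPM) and KO-Nut3 RH6 (341 CPM), and between 146 and 268 CPM in the others. The most abundant of these markers was *Gjb6* in 7 libraries and *Dcn* in 5. *Gjb6* alone gave 42.2 of the 146 CPM in WT-Nut3 RH14, the lowest sum, and 60.9 of the 543 CPM in KO-Nut3 RH8. KO-Nut3 RH6 also had the highest sum of 8 thalamus markers (282 CPM against 90.7 to 106 in the other 11 libraries) and the lowest sum of 10 markers of hippocampal neurons (700 CPM against 928 to 1142). For the genes and lists whose values moved most without 1 of these libraries, the value without it is given beside the result.

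**Figure D1:**
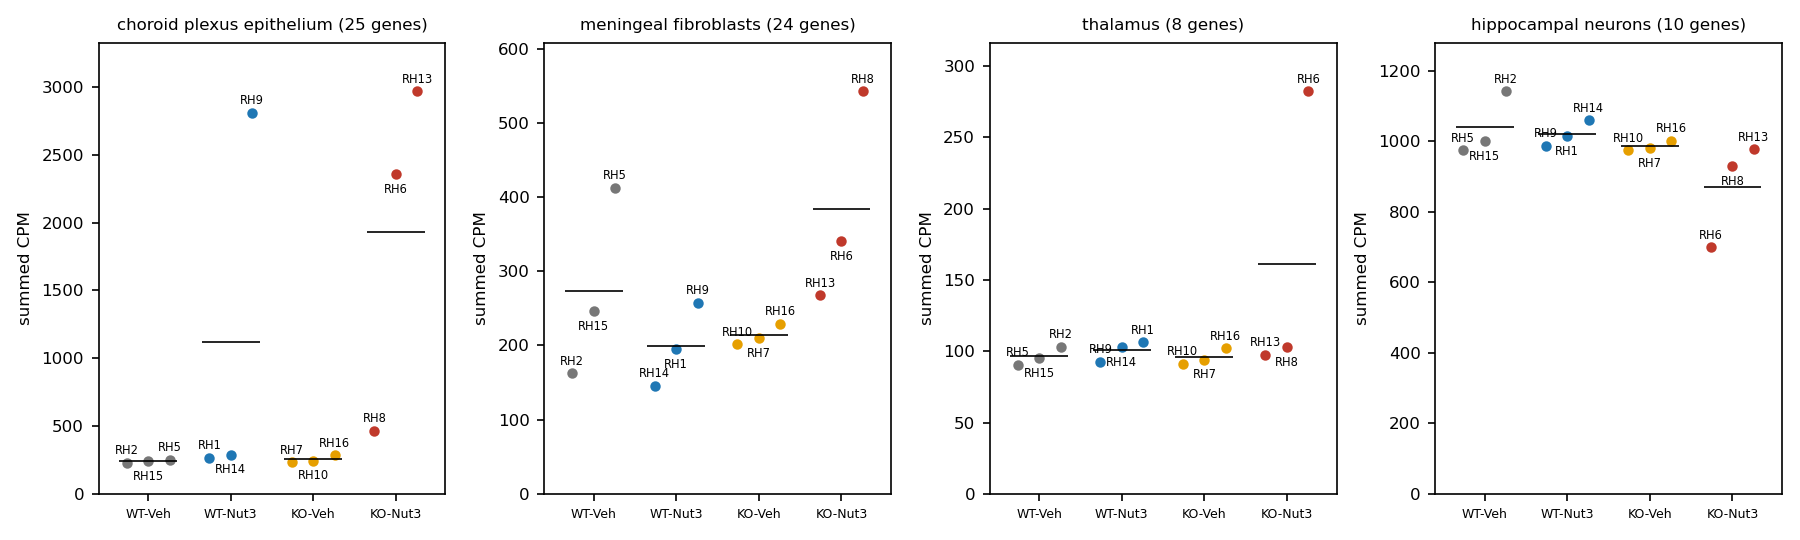
Summed CPM of 4 lists of marker genes, 1 point for each of the 12 libraries, with the group on the x axis and a line at the group mean. The choroid plexus sum stands at 2356 to 2972 CPM in RH6, RH9 and RH13 and at 466 CPM in RH8, the meningeal sum is highest in RH8 and RH5, and the thalamus sum in RH6.

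The retinol carriers *Ttr* and *Rbp4* differed from each other across the libraries. *Ttr* (ENSMUSG00000061808, chromosome 18, 20665280 to 20674321, plus strand, GRCm38) was at 5.15, 6.39 and 9.56 CPM in WT-Veh and at 3.15, 11.6 and 15.2 CPM in KO-Veh. In KO-Nut3 it was at 314 CPM in RH8, 3091 CPM in RH6 and 4520 CPM in RH13. In WT-Nut3 it was at 12.9 CPM in RH1, 18.2 CPM in RH14 and 4215 CPM in RH9. All 3 KO-Nut3 libraries and 1 of the WT-Nut3 libraries were therefore far above all 6 vehicle libraries, while the remaining WT-Nut3 libraries lay close to the highest KO-Veh library. In KO-Nut3 RH13 the reads on *Ttr* made up 0.451% of all reads on genes, and the span from the lowest to the highest library was 1435-fold.

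From KO-Veh to KO-Nut3, *Ttr* rose by a log2 fold change of 8.05 (SE 0.993, adjusted *P*-value 0.0131, quasi-likelihood test of edgeR). It passed when KO-Nut3 RH6, RH8 or RH13 was left out, and its adjusted *P*-value was 0.134, 0.230 and 0.130 without KO-Veh RH7, RH10 and RH16, with log2 fold changes from 7.43 to 8.58 over the 6 fits. Over all alternatives the adjusted *P*-value ran from 2.97e-16, with every gene that had a count, to 0.298, with all 12 libraries in one fit. From WT-Veh to WT-Nut3 the log2 fold change of *Ttr* was 7.65 (SE 1.97, adjusted *P*-value 0.998), although every WT-Nut3 library was above every WT-Veh library. Without WT-Nut3 RH9 it was 1.14 (SE 0.230), and with a term for animal number (up to RH8 against from RH9, a division found in the data) it was 4.83 (SE 2.76). Neither passed.

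*Rbp4* (ENSMUSG00000024990, chromosome 19, 38116629 to 38125281, minus strand) did not share this pattern. Its levels were 5.02, 5.61 and 9.67 CPM in WT-Veh, 4.26, 5.71 and 5.83 CPM in WT-Nut3, 5.27, 5.92 and 6.37 CPM in KO-Veh and 3.605, 5.55 and 9.51 CPM in KO-Nut3. The highest libraries were WT-Veh RH5 and KO-Nut3 RH8 and the lowest was KO-Nut3 RH6, so that all 4 groups overlapped. The log2 fold change from KO-Veh to KO-Nut3 was 0.08 (SE 0.299, adjusted *P*-value 0.962 in edgeR), and it turned to -0.36 without KO-Nut3 RH8 and was 0.36 without RH6, neither past the threshold. Of all genes tested, the profile of *Rbp4* was closest to those of *Nnat*, *Thbd* and *Col6a2*, and *Dcn*, a meningeal marker, was the fifth.

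*Stra6* (ENSMUSG00000032327, chromosome 9, 58063788 to 58153996, plus strand), the membrane receptor for retinol bound to RBP4, stayed within a 2.35-fold span. It was at 14.4, 16.3 and 16.8 CPM in WT-Veh and at 14.05, 17.1 and 17.9 CPM in WT-Nut3. In KO-Veh it was at 8.36 CPM in RH7, 8.85 CPM in RH10 and 16.3 CPM in RH16, and in KO-Nut3 at 11, 14.7 and 19.7 CPM. Low levels were thus seen in 2 of the 3 KO-Veh libraries and in KO-Nut3 RH8, and the groups overlapped in each comparison. The log2 fold change was -0.51 from WT-Veh to KO-Veh (SE 0.203, adjusted *P*-value 0.653) and 0.44 from KO-Veh to KO-Nut3 (SE 0.273, adjusted *P*-value 0.752), and neither passed in edgeR. Without KO-Veh RH16 they were -0.87 and 0.81. With 1 library left out at a time they ran from -0.87 to -0.32 and from 0.20 to 0.81. *Stra6* lies over a part of *Ccdc33* on the opposite strand without sharing exons with it.

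**Figure D2:**
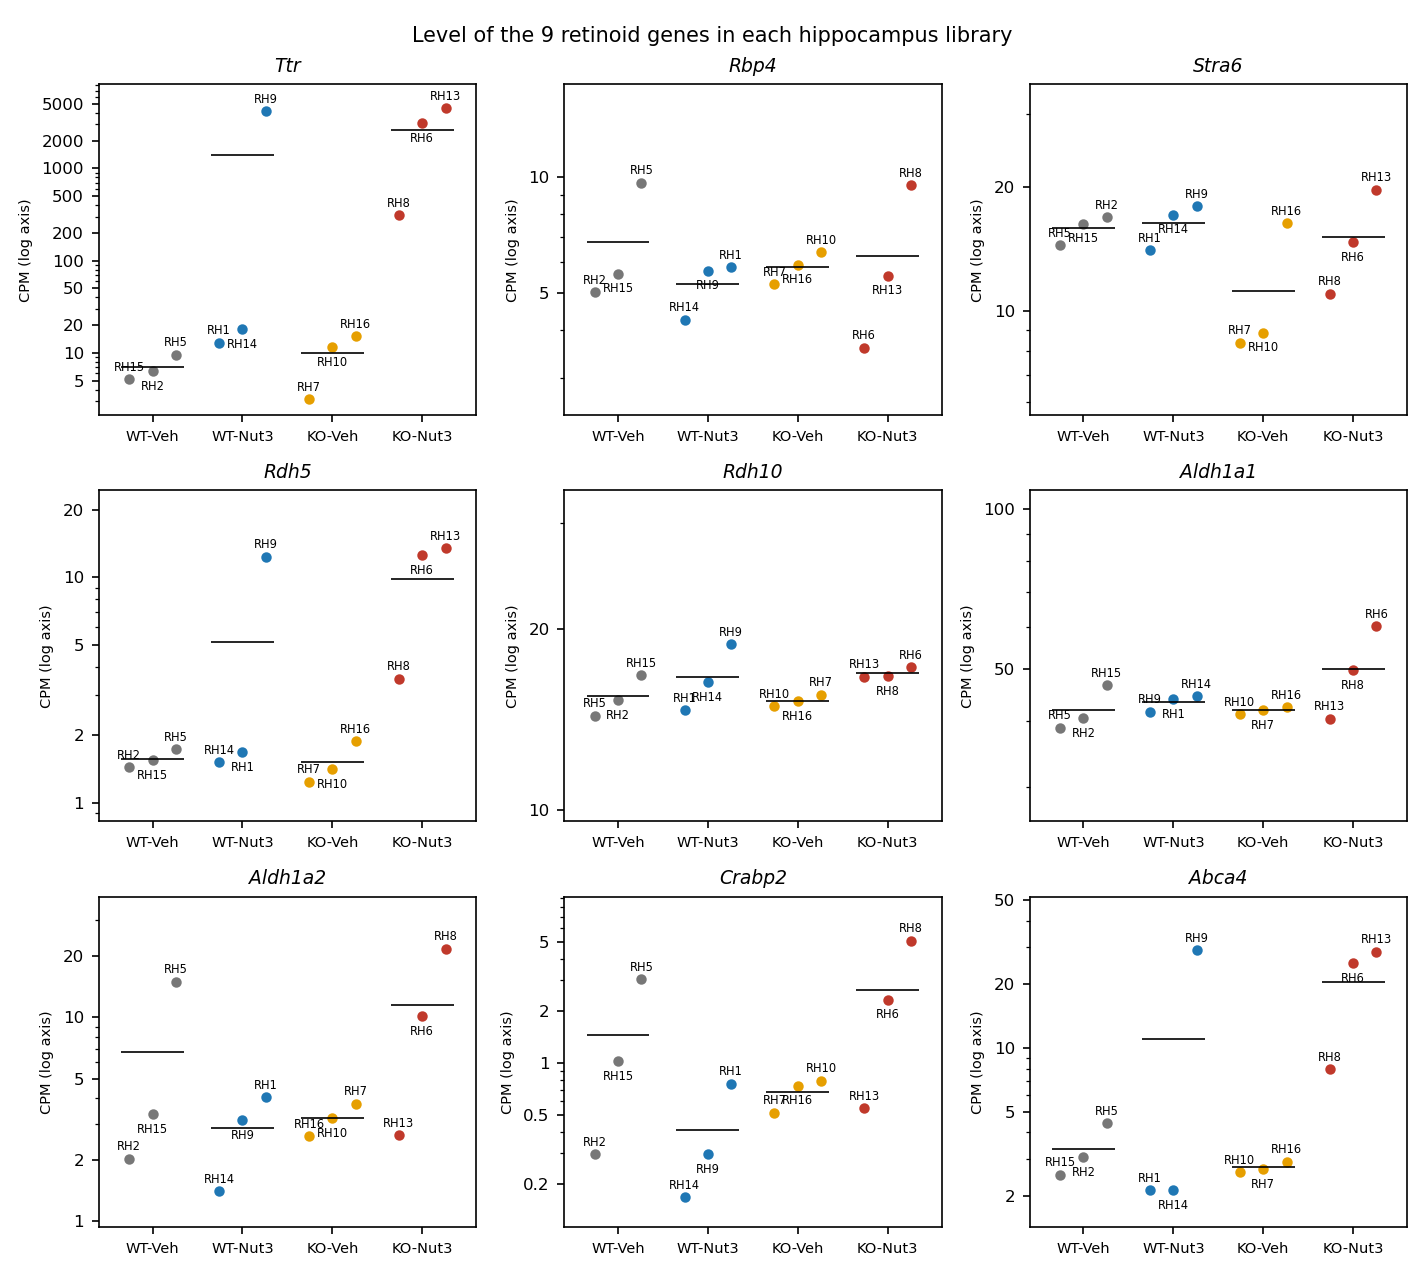
CPM (log axis, its range set for each panel) of the 9 genes in the 12 libraries, with the group on the x axis, a point for each library and a line at the group mean. *Ttr*, *Rdh5* and *Abca4* are high in RH6, RH9 and RH13 and lower in RH8, *Aldh1a2* and *Crabp2* are high in RH5, RH6 and RH8, and *Rdh10* and *Aldh1a1* vary least.

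Among the retinol dehydrogenases, *Rdh5* was high in the libraries with high *Ttr* and *Rdh10* was nearly level. *Rdh5* (ENSMUSG00000025350, chromosome 10, 128913593 to 128922888, minus strand) encodes an enzyme that oxidises 11-cis-retinol. It was at 1.43, 1.55 and 1.73 CPM in WT-Veh and at 1.24, 1.41 and 1.88 CPM in KO-Veh. In KO-Nut3 it was at 3.55 CPM in RH8, 12.5 CPM in RH6 and 13.5 CPM in RH13, and in WT-Nut3 at 1.51, 1.67 and, in RH9, 12.4 CPM. The KO-Nut3 libraries lay above all KO-Veh libraries, and RH9 was the 1 WT-Nut3 library outside the range of the vehicle groups. The log2 fold change from KO-Veh to KO-Nut3 was 2.70 (SE 0.455, adjusted *P*-value 0.0563), which missed the threshold in edgeR, and it passed in DESeq2, and in edgeR without a filter on low counts or without KO-Nut3 RH6 or RH8. The adjusted *P*-values ran from 7.94e-09 in DESeq2 to 0.502 without KO-Veh RH10. The exons of *Rdh5* overlap those of *Bloc1s1* on the same strand, which held 104 counts over the 12 libraries, and how reads in the shared bases were divided is uncertain.

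*Rdh10* (ENSMUSG00000025921, chromosome 1, 16105774 to 16133734, plus strand), the enzyme that oxidises all-trans-retinol, spanned 14.3 to 18.9 CPM over all libraries. It was at 14.9, 15.2 and 15.5 CPM in KO-Veh and at 16.6, 16.7 and 17.2 CPM in KO-Nut3, 2 groups that did not overlap. The difference was a log2 fold change of 0.15 (SE 0.0931, adjusted *P*-value 0.753 in edgeR). In the WT groups the levels were 14.3, 15.2 and 16.7 CPM with vehicle and 14.7, 16.3 and 18.9 CPM with Nutlin-3, and these overlapped.

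The enzymes that make retinoic acid, *Aldh1a1* and *Aldh1a2*, also differed. *Aldh1a1* (ENSMUSG00000053279, chromosome 19, 20492715 to 20643465, plus strand) was at 38.8 to 46.7 CPM with a median of 40.5 CPM in WT-Veh, at 41.6 to 44.5 CPM in WT-Nut3 and at 41.2 to 42.4 CPM in KO-Veh. In KO-Nut3 it was at 40.4 CPM in RH13, 49.8 CPM in RH8 and 60.3 CPM in RH6, the highest library, which also held the highest thalamus sum. The log2 fold change from KO-Veh to KO-Nut3 was 0.26 (SE 0.126, adjusted *P*-value 0.690 in edgeR). Without RH6 it was 0.11 (SE 0.0927). Of the 8 markers of midbrain dopaminergic neurons, cells known to express *Aldh1a1*, 0 of 7 tested passed in any of the comparisons, and their summed level was 76.7 CPM in KO-Nut3 RH6 and 69.9 to 110 CPM in the other libraries. That sum was mostly *Nr4a2*, which was at 53.4 CPM in RH6 and 54.6 to 94.0 CPM elsewhere, while *Drd2*, named after its values were seen, was at 8.98 CPM in RH6 and 1.97 to 3.72 CPM elsewhere.

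*Aldh1a2* (ENSMUSG00000013584, chromosome 9, 71215789 to 71296243, plus strand) was at 2.03, 3.35 and, in RH5, 14.9 CPM in WT-Veh and at 1.40, 3.13 and 4.06 CPM in WT-Nut3. It was at 2.62, 3.21 and 3.77 CPM in KO-Veh, and in KO-Nut3 at 2.64 CPM in RH13, 10.1 CPM in RH6 and 21.7 CPM in RH8. High levels thus occurred in 1 vehicle-treated WT mouse as well as in 2 KO-Nut3 mice, and KO-Nut3 RH13, the library with the most *Ttr*, was inside the KO-Veh range. The log2 fold change from KO-Veh to KO-Nut3 was 1.83 (SE 0.577, adjusted *P*-value 0.405 in edgeR). It was 0.98 without KO-Nut3 RH8 (SE 0.452, adjusted *P*-value 0.529), the library with the highest meningeal sum, and 1.92 without RH6. Without RH13 it was 2.30 and passed (adjusted *P*-value 0.0342), the 1 of the 6 fits leaving out a library that did, and over all alternatives the adjusted *P*-values ran from 0.000234 to 0.983. From WT-Veh to WT-Nut3 it was -1.24 (SE 0.621, adjusted *P*-value 0.998), and without WT-Veh RH5 it was 0.09.

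*Crabp2* (ENSMUSG00000004885, chromosome 3, 87948666 to 87953376, plus strand), the carrier of retinoic acid to its receptors, had 3 to 89 reads per library. It was at 0.299, 1.03 and, in RH5, 3.05 CPM in WT-Veh and at 0.168, 0.298 and 0.761 CPM in WT-Nut3. In KO-Veh it was at 0.516, 0.741 and 0.789 CPM, and in KO-Nut3 at 0.549 CPM in RH13, 2.33 CPM in RH6 and 5.10 CPM in RH8. The high libraries were those of *Aldh1a2*, in the same order. The log2 fold change from KO-Veh to KO-Nut3 was 1.95 (SE 0.652, adjusted *P*-value 0.449 in edgeR). It was 1.07 without KO-Nut3 RH8, 2.04 without RH6 and 2.44 without RH13, and passed in 0 of the 6 fits leaving out a library.

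*Abca4* (ENSMUSG00000028125, chromosome 3, 122044443 to 122180123, plus strand), a transporter that moves retinaldehyde bound to phospholipid across membranes, was at 2.59, 2.68 and 2.91 CPM in KO-Veh and at 2.52, 3.05 and 4.41 CPM in WT-Veh. It was at 7.96 CPM in RH8, 25.2 CPM in RH6 and 28.6 CPM in RH13 of KO-Nut3, and in WT-Nut3 at 2.13 CPM in both RH1 and RH14 and at 29.0 CPM in RH9. All KO-Nut3 libraries were above all 6 vehicle libraries, and RH9 was above every other library. *Abca4* rose from KO-Veh to KO-Nut3 by a log2 fold change of 2.91 (SE 0.414, adjusted *P*-value 0.0315 in edgeR). It did not pass without any 1 of the KO-Veh libraries (adjusted *P*-values 0.297, 0.378 and 0.208), nor without KO-Nut3 RH13 (0.0532), and over the alternatives its adjusted *P*-value ran from 1.18e-11 to 0.378. With the term for animal number it was 0.0516.

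Counted together, 2 of the 9 genes passed the threshold between KO-Nut3 and KO-Veh, *Ttr* and *Abca4*, both upward, where 0.199% of the 22592 genes tested were called in edgeR. The count was 3 in DESeq2, with *Rdh5* as the addition, 0 with all 12 libraries in one fit, 1 (*Ttr*) with the term for animal number, and 0 without any 1 of the KO-Veh libraries. For 4 of the 9 (*Ttr*, *Rdh5*, *Rdh10* and *Abca4*) all KO-Nut3 libraries were above all KO-Veh libraries, which was the case for 7.85% of the genes tested. All 9 log2 fold changes were above 0, with a median of 1.83 beside a median of 0.0034 for all genes tested, and without KO-Nut3 RH8 the median was 0.98 with 8 above 0.

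Between WT-Nut3 and WT-Veh, 0 of the 9 genes passed, and the share of all genes called was 0% in edgeR (717 genes with an unadjusted *P*-value under 0.05) and 0 genes in DESeq2 (340 unadjusted). At an unadjusted *P*-value under 0.05 there were 3 of the 9, *Ttr*, *Rdh5* and *Crabp2*, the last with a log2 fold change of -1.81. Without WT-Veh RH5 that of *Crabp2* was -0.70 (SE 0.702), and without WT-Nut3 RH9 those of *Rdh5* and *Abca4* were 0.024 and -0.64, beside 1.73 and 1.74 with it. *Ttr* was the 1 gene of the 9 with all WT-Nut3 libraries above all WT-Veh libraries, beside 3.6% of the genes tested. The median of the 9 log2 fold changes was 0.05.

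Between the genotypes, 0 of the 9 passed under vehicle, where 0.0177% of the genes tested were called in edgeR (1627 unadjusted, 27 called in DESeq2), and *Stra6* was the 1 member at an unadjusted *P*-value under 0.05. Under Nutlin-3 again 0 of the 9 passed, with 0.00443% of the genes called (1101 unadjusted, 7 in DESeq2), and *Aldh1a2* and *Crabp2* were the 2 members under 0.05 unadjusted. Whether the difference with Nutlin-3 depended on the genotype was tested as an interaction over the 12 libraries, in which 0 of the 9 and 0% of all genes passed (942 unadjusted, 1 gene in DESeq2). The interaction log2 estimates were 3.07 for *Aldh1a2* (SE 1.005) and 3.77 for *Crabp2* (SE 1.13), both with an adjusted *P*-value of 0.994, and 0.41 for *Ttr* (SE 2.31, adjusted *P*-value 0.996). Without WT-Nut3 RH9 the estimate for *Ttr* was 6.93 (SE 1.23, adjusted *P*-value 0.163), and without any 1 of the other libraries it lay between -0.22 and 0.94. Without WT-Veh RH5 the estimates were 1.75 for *Aldh1a2* and 2.66 for *Crabp2*, and 0 of the 9 genes passed in the fits leaving out 1 library. Comparisons that use the same KO-Veh or WT-Veh libraries are not independent of each other.

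**Figure D3:**
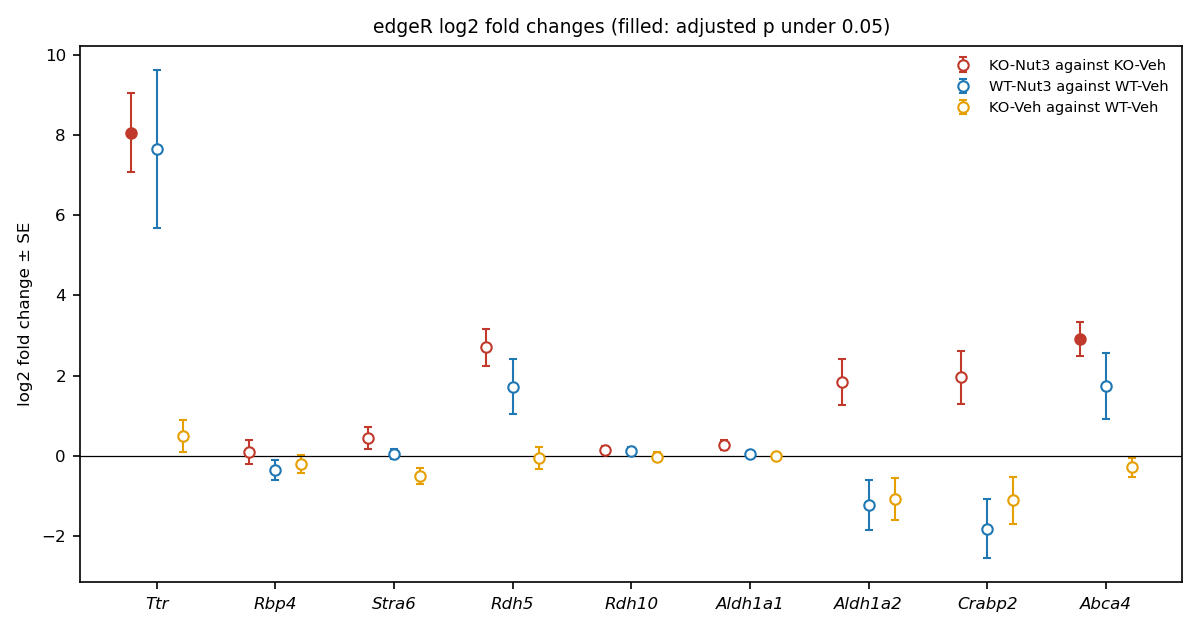
Log2 fold changes (y axis) with their standard errors for the 9 genes (x axis) in 3 comparisons, filled where the adjusted *P*-value of edgeR was under 0.05. *Ttr* and *Abca4* are filled between KO-Nut3 and KO-Veh, and *Aldh1a2* and *Crabp2* lie above 0 between KO-Nut3 and KO-Veh and below 0 between WT-Nut3 and WT-Veh, where neither passed.

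Levels of different genes were compared per kilobase of exon. In WT-Veh the order of the group means was *Aldh1a1* (8.51 CPM per kilobase), *Ttr* (5.93), *Rbp4* (5.04), *Rdh10* (3.71), *Aldh1a2* (2.99), *Stra6* (2.72), *Crabp2* (1.10), *Rdh5* (0.559) and *Abca4* (0.277). The places of *Aldh1a2* and *Crabp2* rested on RH5 (6.59 and 2.30 CPM per kilobase). In RH2 and RH15 *Aldh1a2* (0.897 and 1.48) was below *Stra6* (2.89 and 2.79), and in RH2 *Crabp2* (0.226) was below *Rdh5* (0.510). In KO-Nut3 *Ttr* came first with 2227 CPM per kilobase, then *Aldh1a1* (10.2). *Rdh5* was above *Rdh10* per kilobase in KO-Nut3 RH6 (4.46 and 4.15) and RH13 (4.81 and 4.0) and below it in RH8 (1.26 and 4.01). By group, the mean of *Ttr*, *Rdh5*, *Rdh10*, *Aldh1a1*, *Aldh1a2*, *Crabp2* and *Abca4* was highest in KO-Nut3, but for each of them the KO-Nut3 range overlapped that of WT-Nut3. Once the 4 groups were put in the order of their means, the ranges of neighbouring groups overlapped for each of the 9 genes.

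The spread over the 12 libraries set 5 of the genes apart from the other 4. The SD of log2 CPM was 4.04 for *Ttr*, 1.51 for *Abca4*, 1.35 for *Rdh5*, 1.35 for *Crabp2* and 1.17 for *Aldh1a2*, all at or above the 98.1 percentile of the genes tested. It was 0.402 for *Rbp4*, 0.395 for *Stra6*, 0.173 for *Aldh1a1* and 0.115 for *Rdh10*, and the last was at the 25.9 percentile. The spread was computed over all libraries without regard to group.

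The 5 variable genes followed 2 patterns, described here by the root mean square difference between centred log2 CPM profiles over the same 12 libraries, in which a smaller value means more alike. *Abca4* and *Rdh5* differed by 0.299, which made *Rdh5* the third closest of all genes tested to *Abca4* and *Abca4* the fifth closest to *Rdh5*. *Aldh1a2* was the closest of all genes tested to *Crabp2*, at 0.425. *Ttr* and *Aldh1a2* differed by 3.78, which put *Aldh1a2* at rank 4012 from *Ttr*. The nearly level *Rdh10* differed from *Ttr* by 3.79 (rank 4075), so this value does not set *Aldh1a2* apart from a level gene. *Aldh1a2* differed from *Rdh5* by 1.54 and from *Abca4* by 1.56, at ranks 21347 and 21505 from *Aldh1a2*. *Ttr* moved over a wider range than *Abca4* and *Rdh5*, which were at ranks 52 and 60 from it.

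Ratios of reads were compared within and across these patterns. *Abca4* had 2.01 to 2.34 reads for each read of *Rdh5* in KO-Nut3 RH6, RH8 and RH13 and WT-Nut3 RH9, and 1.27 to 2.55 in the other libraries. *Ttr* had 247, 88.3, 335 and 341 reads for each read of *Rdh5* in those 4 libraries in that order, and 2.54 to 12 in the others. For each read of *Aldh1a2* it had 306, 14.5, 1715 and 1347 reads in the same order, and 0.641 to 13 in the others, so that on this ratio RH8 was next to the highest of the remaining libraries. The reads of *Aldh1a2* for each read of *Crabp2* were between 3.25 and 10.5 in all 12 libraries. *Crabp2* had as few as 3 reads in a library.

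The genes with profiles most like that of *Ttr* were *Slc4a5* (0.788), *Tmem72* (0.798), *F5* (1.37), *Kcne2* (1.41) and *2900040C04Rik* (1.45), of which the first 4 are in the list of choroid plexus markers. *Slc4a5*, for example, was at 3.44 CPM in KO-Nut3 RH8, 30.1 CPM in RH6 and 37.6 CPM in RH13, and at 37.4 CPM in WT-Nut3 RH9. Its level was at most 0.285 CPM in the other 8 libraries. Those most like *Aldh1a2* were *Slc22a6* (0.242), *Ptgds* (0.299), *Sphk1* (0.341), *Itih2* (0.345) and *Fmod* (0.365), of which *Slc22a6* and *Fmod* are in the meningeal list. *Ptgds*, prostaglandin D synthase, which also binds retinoids, was at 1047 CPM in WT-Veh RH5, 836 CPM in KO-Nut3 RH6 and 1725 CPM in KO-Nut3 RH8, and at 134 to 354 CPM in the other 9 libraries.

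**Figure D4:**
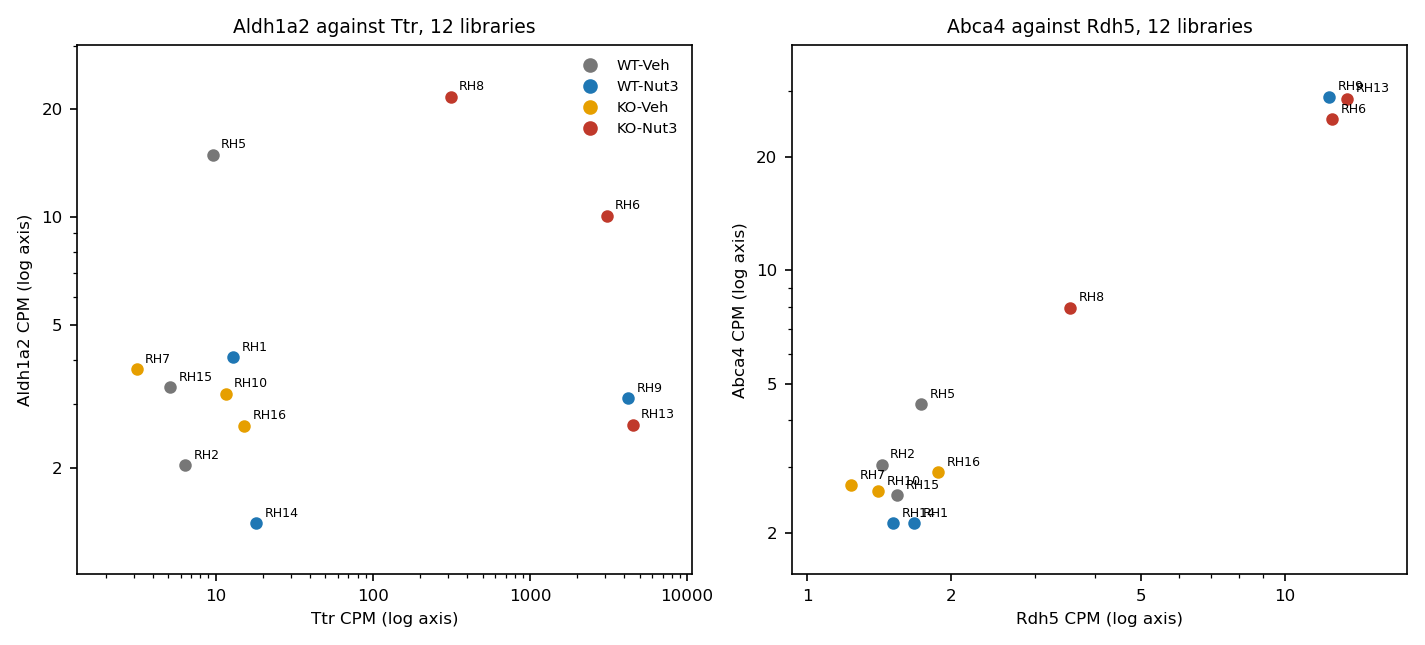
CPM of *Aldh1a2* against *Ttr* (left) and of *Abca4* against *Rdh5* (right), all axes log, 1 point for each of the 12 libraries, coloured by group. On the left RH9 and RH13 have high *Ttr* without high *Aldh1a2*, RH5 has high *Aldh1a2* without high *Ttr*, and RH6 and RH8 have both, while on the right RH6, RH9 and RH13 lie together at the top and RH8 between them and the rest.

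The promoters of *Rdh5* and *Abca4*, which had alike profiles, and of *Aldh1a2*, which had another, are shown to let their sequences be compared. They are RefSeq windows of 300 bases (GRCm38.p6), from 250 bases before to 50 bases after the start. They are read 5′ to 3′ on the strand of the gene. Windows of 6 of the 9 genes were searched. The promoters of *Ttr*, *Rdh10* and *Crabp2* were not searched, so the matches and their absence do not cover these genes. Capitals mark a match, on either strand, to TAATCC, the core recognised by the homeobox factor OTX2, or to AGGTCA, the half-site of retinoid and thyroid hormone receptors. The windows lie at chr10:128919248-128919547 on the minus strand for *Rdh5*, chr3:122044210-122044509 on the plus strand for *Abca4* and chr9:71215539-71215838 on the plus strand for *Aldh1a2*.
Rdh5: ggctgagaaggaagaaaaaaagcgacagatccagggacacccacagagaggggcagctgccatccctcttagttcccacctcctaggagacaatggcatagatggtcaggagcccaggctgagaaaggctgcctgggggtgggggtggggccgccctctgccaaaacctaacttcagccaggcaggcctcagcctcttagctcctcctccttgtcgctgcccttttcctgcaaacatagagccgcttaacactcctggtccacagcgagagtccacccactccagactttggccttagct
Abca4: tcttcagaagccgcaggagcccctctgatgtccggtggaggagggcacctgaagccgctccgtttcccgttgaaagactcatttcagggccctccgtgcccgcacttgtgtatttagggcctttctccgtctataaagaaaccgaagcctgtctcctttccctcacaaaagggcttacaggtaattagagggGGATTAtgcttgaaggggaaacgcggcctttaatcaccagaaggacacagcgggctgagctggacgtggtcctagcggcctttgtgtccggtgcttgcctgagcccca
Aldh1a2: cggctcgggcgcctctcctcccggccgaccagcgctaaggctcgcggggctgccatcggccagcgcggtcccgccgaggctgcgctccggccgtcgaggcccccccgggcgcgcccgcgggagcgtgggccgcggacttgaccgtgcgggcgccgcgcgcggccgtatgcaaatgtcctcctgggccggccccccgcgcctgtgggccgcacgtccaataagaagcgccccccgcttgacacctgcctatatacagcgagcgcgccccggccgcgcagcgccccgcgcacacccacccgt

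One match was found over the 11 windows of the 6 genes, a TAATCC on the strand opposite to *Abca4* that begins at -58 from the start when read along the gene. TAATCC occurs in 7.06% and AGGTCA in 16.3% of the 32851 windows in the table. The p53 half-site, searched because Nutlin-3 acts on p53, was in 0 of the 11 windows and in 8.36% of all. The window of *Aldh1a2* has 78% G and C, those of *Rdh5* and *Abca4* 58.3% and 56.3%, and the median of all windows is 52.7%. A match is a description of letters and says nothing on binding, and the absence of one concerns these windows alone. *Otx2* itself was at 28.0, 3.04 and 19.2 CPM in KO-Nut3 RH6, RH8 and RH13 and at 22.4 CPM in WT-Nut3 RH9, and at most 2.45 CPM elsewhere.

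The rest of the retinoid pathway showed no call between KO-Nut3 and KO-Veh. Of 13 further genes for binding and uptake, 11 could be tested and 0 passed in edgeR, with 5 higher and 6 lower and a median log2 fold change of -0.06 (0.23 without KO-Nut3 RH6). Without KO-Nut3 RH8, 1 of the 11 passed upward. The most abundant were *Fabp5*, which carries fatty acids and retinoic acid (54.1 ± 2.62 CPM in KO-Nut3 beside 56.2 ± 5.73 under vehicle, SD, n = 3 each), *Scarb1* (34.0 ± 4.34 and 36.9 ± 1.52) and *Rlbp1* (18.4 ± 4.12 and 17.6 ± 0.487).

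Of 26 further enzymes (esterases, reductases, dehydrogenases and the CYP26 family that degrades retinoic acid), 20 could be tested and 0 passed, with 13 higher and 7 lower and a median of 0.09. *Adh5*, the most abundant, was at 39.4 ± 1.02 CPM in KO-Veh (SD, n = 3) and at 41.9 ± 2.14 CPM in KO-Nut3 (SD, n = 3). *Rdh13*, *Rdh14* and *Dgat1*, next in level, had log2 fold changes of -0.06, 0.07 and 0.08 (SE 0.125, 0.138 and 0.125). *Cyp26b1*, chosen after its values were seen, was at 13.6, 16.1 and 18.1 CPM in KO-Nut3 and at 9.34, 12.1 and 13.1 CPM in KO-Veh, groups that did not overlap, with a log2 fold change of 0.47 (SE 0.154, adjusted *P*-value 0.442 in edgeR).

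Of 15 receptors and response genes, 13 could be tested and 0 passed, with a median log2 fold change of 0.05. *Rxrb*, the receptor with the most reads, was at 71.9 ± 0.883 CPM in KO-Veh (SD, n = 3) beside 69.9 ± 1.78 CPM with Nutlin-3 (SD, n = 3), and *Nrip1*, *Meis2* and *Rxra* had log2 fold changes of -0.13, 0.20 and 0.05 (SE 0.0706, 0.226 and 0.0904). *Stra8* was at 0 reads in all 12 libraries. In the other comparisons, too, 0 genes of these 3 lists passed. The medians from WT-Veh to WT-Nut3 were 0.07 for binding and uptake, -0.05 for enzymes and -0.10 for receptors and response genes.

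Thyroid hormone, the other ligand of transthyretin, was covered by a list of 15 genes for its transport, deiodination and response, of which 12 could be tested and 0 passed in any of the comparisons (median log2 fold change -0.04 from KO-Veh to KO-Nut3). *Thra*, the receptor and most abundant gene of the list, was at 733 ± 33.6 CPM in KO-Veh (SD, n = 3) beside 645 ± 88.5 CPM with Nutlin-3 (SD, n = 3; 544 CPM in RH6, 682 in RH13 and 710 in RH8), and *Klf9*, a target of the hormone, had a log2 fold change of -0.06 (SE 0.0649). *Slc7a5* was at -0.09 (SE 0.0791). *Crym* was at -0.33 (SE 0.244), with 103 CPM in KO-Nut3 RH6, while RH13 and RH8 (224 and 228 CPM) were within the KO-Veh range (199.9 to 254 CPM). *Slco1c1*, a transporter of thyroxine named after its values were seen, was at 63.0, 71.9 and 89.8 CPM in KO-Nut3 and at 91.9 CPM in WT-Nut3 RH9, against 46.3 to 58.8 CPM in the other 8 libraries. Its log2 fold change from KO-Veh to KO-Nut3 was 0.43 (SE 0.117, adjusted *P*-value 0.278 in edgeR).

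The marker lists are given beside the retinoid genes, and their part in the results was not tested. From KO-Veh to KO-Nut3, 8 of 25 choroid plexus markers passed upward, all 25 were higher and the median was 4.29, while from WT-Veh to WT-Nut3 0 passed, all 25 were higher and the median was 3.02. Without WT-Nut3 RH9 the latter median was 0.15, with 17 higher and 8 lower. In the KO groups 25 passed without KO-Nut3 RH8, 14 without RH6, 3 without RH13, and, of the vehicle libraries, 1 when RH10 and 0 when RH7 or RH16 was left out, with medians from 3.80 to 4.78. The 8 that passed with all libraries were *Folr1*, *Slc4a5*, *Tmem72*, *Kcne2*, *Ecrg4*, *Wdr86*, *Wfikkn2* and *Col8a1*. Of 24 meningeal markers, 2 passed upward from KO-Veh to KO-Nut3, *Slc13a4* and *Pcolce*, with a median of 1.32, and from WT-Veh to WT-Nut3 23 were lower with a median of -0.54 and 0 passed. The medians were 0.63 without KO-Nut3 RH8 in the KO comparison and 0.0032 without WT-Veh RH5 in the WT comparison, and 1 to 7 passed in the KO comparison when 1 library was left out. *Slc13a4* and *Pcolce* were also high in WT-Nut3 RH9 (26.1 and 18.9 CPM), where *Aldh1a2* was not. In both comparisons 0 passed among the markers of ependyma (11 tested, medians 0.65 and 0.91), endothelium (10 tested, 0.22 and -0.14), blood (5 tested, 0.42 and 0.14), thalamus (8 tested, 0.71 and 0.11) and hippocampal neurons (10 tested, -0.18 and -0.01). Without KO-Nut3 RH6 the medians from KO-Veh to KO-Nut3 were 0.053 for thalamus, -0.038 for hippocampal neurons and 0.21 for blood.

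**Figure D5:**
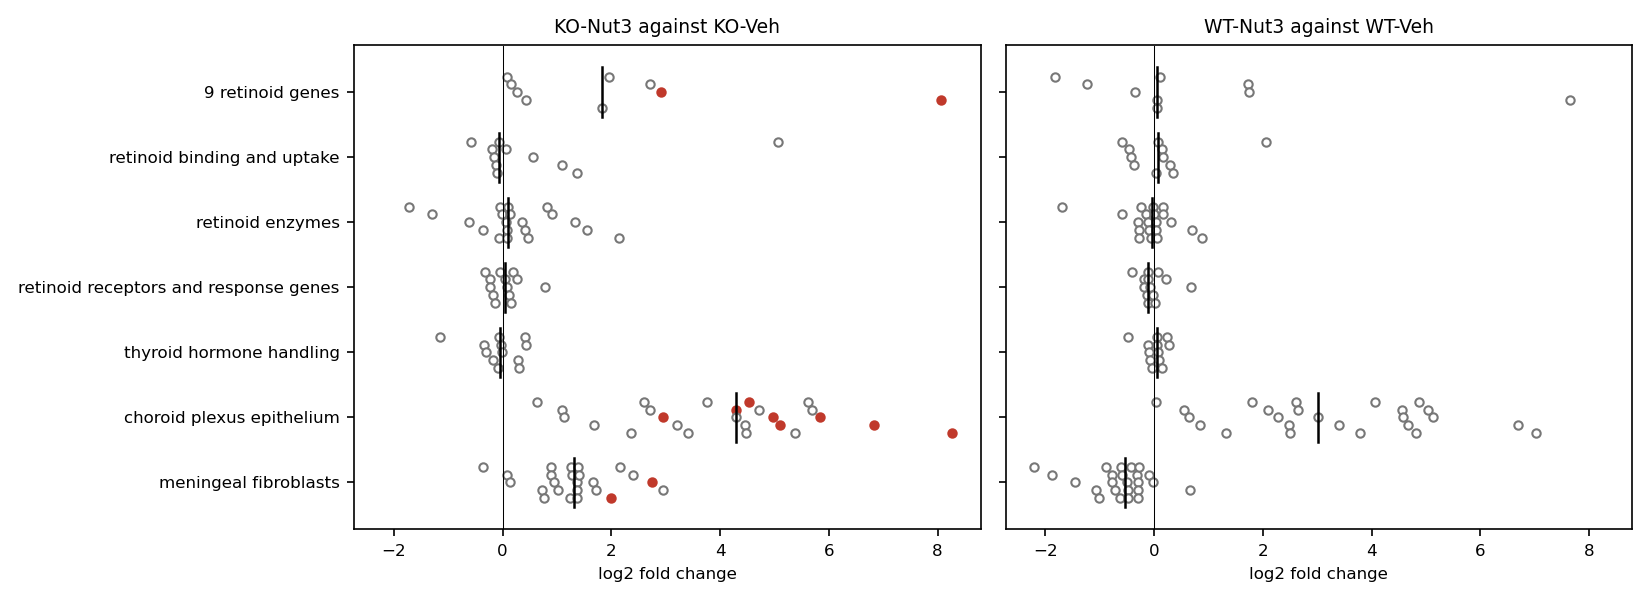
Log2 fold changes (x axis) of each tested gene of 7 lists (y axis) from KO-Veh to KO-Nut3 (left) and from WT-Veh to WT-Nut3 (right), filled red where the adjusted *P*-value of edgeR was under 0.05, with a line at the median of the list. The 3 retinoid lists and the thyroid list have medians between -0.10 and 0.09, and the choroid plexus markers medians of 4.29 and 3.02.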

How the data were processed

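Poly(A) RNA of hippocampus from 12 mice was sequenced. The authors mapped the reads with STAR to mm10 (version not given in the sources used here) and deposited raw counts of reads per gene, without normalization. The unstranded counts were used. The labels name single reads and the methods paired ends, and which applies is unsure. Of the 55421 identifiers, 55240 matched GENCODE M21, and symbols, positions and exon lengths were taken from it. A table of the whole series, whose column names carry no animal number, was not used.

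TMM factors came from edgeR 4.0.16 under R 4.3.3. The 22592 genes with more than 20 counts were tested with the two-sided quasi-likelihood test, fitting only the 6 libraries of the groups compared, or all 12 for the interaction, and *P*-values were adjusted by Benjamini-Hochberg over all genes tested (threshold 0.05). SE is the log2 fold change divided by the square root of *F*. Profiles used log2 CPM with a prior count of 1. *Crabp2* in WT-Nut3 RH14 was at the floor of 3 counts, which covers counting error only. The test was checked on simulated data, but no outcome of that check is given here, and no conclusion rests on it. The labels give each library its own animal number and nothing more on separate cages or litters, so *P*-values measure the spread between these samples.

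The 9 genes and the 14 lists (the 9 genes themselves, 3 retinoid lists, thyroid hormone, 8 lists of cell or tissue markers, and *Fmr1*) were chosen with earlier results of these data known. Genes named from a list are those past the threshold and up to 4 others with the highest mean CPM, and for *Ttr* and *Aldh1a2* the 5 genes with the most similar profile. *Otx2*, *Stra8* and the genes with profiles like those of the other members were named after their values were seen. Some genes of the lists are counted in them but not reported here by name. Alternatives were DESeq2 1.42.0, DESeq2 size factors, filterByExpr, no filter, all 12 libraries in one fit, a term for animal number, and leaving out each library (for the lists, this was added after seeing the data). The number division was known from an earlier analysis and follows the share of reads mapped to several places (3.07% to 3.22% up to RH8, 3.33% to 3.55% from RH9).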

Additional observations from a re-analysis of the deposited data

How the results depend on the processing

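Group levels of the 9 genes moved by less than the spread between replicates in 144 of 144 recomputations. That spread was wide for the variable genes, so the count says little about them. For *Ttr* in WT-Nut3 the SD was 2424 CPM beside a mean of 1415 CPM. Of 585 recomputed log2 fold changes, 530 kept their direction and their side of the threshold. Genes past the threshold numbered 45 from KO-Veh to KO-Nut3, and 244 in DESeq2, 544 without a filter on low counts, 0 with all 12 libraries in one fit (1994 unadjusted), 20 with the term for animal number and 6 to 266 when 1 library was left out. Of the 9 genes these settings called 3, 5, 0, 1 and 0 to 3. From WT-Veh to WT-Nut3 the counts were 249 genes and 5 of the 9 without a filter, 11 genes with the number term and 0 to 1 gene leaving out 1 library. Between KO-Veh and WT-Veh, 4 genes passed, and 27 in DESeq2, 272 without a filter (2 of the 9, *Stra6* and *Aldh1a2*), 1 with all libraries, 21 with the number term and 2 to 11 leaving out 1 library. Between KO-Nut3 and WT-Nut3, 1 gene passed, and 7 in DESeq2, 38 without a filter (2 of the 9, *Aldh1a2* and *Crabp2*) and 0 to 7 leaving out 1. The interaction had 0, and 1 in DESeq2, 291 without a filter (3 of the 9) and 0 to 1 leaving out 1. The cause of these shifts was not tested. Log2 fold changes turned sign with the number term for *Stra6*, to -0.019 from WT-Veh to WT-Nut3 and to 0.014 between KO-Nut3 and WT-Nut3. Leaving out 1 library at a time gave ranges across 0. From KO-Veh to KO-Nut3 this held for *Rbp4* (-0.36 to 0.36). From WT-Veh to WT-Nut3 it held for *Stra6* (-0.023 to 0.15), *Aldh1a1* (-0.0073 to 0.13), *Aldh1a2* (-1.66 to 0.091) and *Abca4* (-0.64 to 2.23). Between KO-Veh and WT-Veh it held for *Rbp4* (-0.38 to 0.13), *Rdh5* (-0.24 to 0.075), *Rdh10* (-0.077 to 0.047), *Aldh1a1* (-0.063 to 0.085), *Aldh1a2* (-1.50 to 0.24) and *Crabp2* (-1.57 to 0.0014). Between KO-Nut3 and WT-Nut3 it held for *Rbp4* (-0.21 to 0.51), *Stra6* (-0.35 to 0.067) and *Rdh10* (-0.068 to 0.12), and in the interaction for *Ttr* (-0.22 to 6.93) and *Rdh10* (-0.052 to 0.15). No paired analysis was possible because each library carries its own animal number. *Crabp2* had as few as 3 reads in a library, and what size of difference could have been detected was not tested.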

Other observations

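A further retinoid carrier had more reads in the 3 KO-Nut3 libraries than in the other 9. *Rbp3*, the interphotoreceptor retinoid-binding protein known from retina and pineal gland, had 111 reads (6.36 CPM) in KO-Nut3 RH8, 19 in KO-Nut3 RH6 and 11 in KO-Nut3 RH13. In each of the other 9 libraries it had between 0 and 4 reads. It was noticed after its values were seen, and its log2 fold change from KO-Veh to KO-Nut3 of 5.07 did not pass (SE 1.202, adjusted *P*-value 0.195 in edgeR).

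*Dio3*, which inactivates thyroid hormone, was at 0.444 CPM in KO-Nut3 RH6 and at 4.87 to 9.29 CPM in the other 11 libraries. *Crym*, which binds thyroid hormone in neurons, was at 103 CPM in the same library and at 194 to 254 CPM in the others. *Cyp1b1*, an oxidase of retinoids and steroids, was at 10.2 CPM in KO-Nut3 RH8 and at 2.68 to 5.97 CPM in the others. *Dio3* and *Cyp1b1* were named after their values were seen, and 0 of *Dio3*, *Crym* and *Cyp1b1* passed the threshold in any of the comparisons in edgeR.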
